A study of Mus musculus with 11 samples.

Results

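Translation factors were followed here across A375 melanoma xenografts given vehicle, PLX4720, bevacizumab or both drugs. All probes of the mouse array whose gene symbol starts with Eif or Eef were taken, except those of the Eif2ak kinases, and a probe was kept if its detection p was under 0.05 on at least 1 array. Of 120 such probes for 60 genes, 90 probes for 52 genes were kept, out of 45281 probes on the array and 19392 that passed the same filter. The 30 probes left out include every probe of 8 genes: Eef1akmt2, Eif1ax, Eif2s3x-ps1, Eif3e, Eif3m, Eif4e1b, Eif4g3 and Eif5a2. The prefix also takes in 3 genes for methyltransferases that act on elongation factors (Eef1akmt1, Eef1aknmt and Eef2kmt), kept as a group of their own.

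Human A375 melanoma cells, a line that carries mutant BRAF, were grown under the skin of CD1 athymic female mice of 6 weeks of age until tumors measured 150 to 200 mm3 by the labels. Over 12 days the mice received methylcellulose vehicle (3 arrays), the BRAF inhibitor PLX4720 at 60 mg/kg by daily gavage (3 arrays), bevacizumab, an antibody against human VEGF-A, at 10 mg/kg injected 3 times per week (3 arrays), or both drugs (COMBO, 2 arrays). RNA of the whole tumor, human cells and mouse host cells together, was hybridized to MouseWG-6 bead arrays, so a lower signal from fewer cells of a type and from less RNA per cell cannot be told apart, and all groups share the 1 human line and the mouse strain. The arrays are described as biological replicates, but the sources used here do not tie each to a mouse, so p-values measure the spread between these samples. The 3 comparisons with vehicle share the vehicle arrays.

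Translation of an mRNA begins when the cap-binding complex eIF4F, helped by eIF4B, opens the 5′ end and eIF3 brings in the small ribosomal subunit with eIF2 and the initiator tRNA. The exchange factor eIF2B recharges eIF2 and is the step that stress kinases block. In elongation, eEF1A carries aminoacyl-tRNA to the ribosome, eEF1B reloads it with GTP, eEF2 moves the ribosome by 1 codon, and eIF5A, which carries the unusual amino acid hypusine, helps at stretches that are hard to translate. In mammals the mRNAs of eEF2 and eEF1A begin with a pyrimidine tract through which mTOR controls their translation.

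The 2 largest changes with PLX4720 were at probes of Eef2, and the sequence before its start is shown first, beside those of the other genes with the smallest adjusted p among genes that had a called probe and a single start in the table, and of Eif2b5, whose probe rose. The 100 bases before the annotated start are given 5′ to 3′ on the gene's strand, from RefSeq on build GRCm38.p6. Capitals mark matches, on either strand, to TATAAA, to CACGTG (an E-box) and to CGGAAG (the core bound by ETS factors), and matches to different motifs did not overlap.
Eef2, chr10:81176531-81176630, plus strand: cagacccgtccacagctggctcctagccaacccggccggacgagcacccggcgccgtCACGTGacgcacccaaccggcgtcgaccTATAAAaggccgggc
Eif4b, chr15:102073673-102073772, plus strand: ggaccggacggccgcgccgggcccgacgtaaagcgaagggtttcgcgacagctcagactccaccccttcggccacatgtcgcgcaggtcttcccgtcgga
Eif4a2, chr16:23107368-23107467, plus strand: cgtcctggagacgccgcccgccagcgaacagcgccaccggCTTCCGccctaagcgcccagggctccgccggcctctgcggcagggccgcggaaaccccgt
Eif4a3, chr11:119300044-119300143, minus strand: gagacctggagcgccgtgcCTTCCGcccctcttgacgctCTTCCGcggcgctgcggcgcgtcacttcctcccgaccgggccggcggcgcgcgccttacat
Eif2b5, chr16:20498717-20498816, plus strand: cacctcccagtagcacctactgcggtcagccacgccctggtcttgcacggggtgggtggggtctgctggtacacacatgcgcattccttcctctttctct

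The table held 40 of the 52 genes, with 53 starts, 6 of them of Eif5a. A gene with several starts is counted at each, so the shares below are of starts and not of genes. Within 250 bases before the start, TATAAA was found at 4 of these 53 starts (7.55%) and at 12.4% of all 32851 starts. CACGTG was found at 12 starts (22.6%, against 6.02% of all) and CGGAAG at 17 (32.1%, against 13.6% of all). The Eef2 window held both TATAAA, which begins 15 bases before the start, and CACGTG, which begins 43 bases before it, and the Eif4a3 window held CGGAAG on the opposite strand at a pair of places. Eif4b and Eif2b5 had none of the 3 motifs in the 250 bases. A match describes these letters only.

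The arrays had 10115 to 11322 probes detected in vehicle tumors, 13049 to 15130 with PLX4720, 11178 to 11797 with bevacizumab and 11536 to 12315 with COMBO. Correlations between arrays of a group were 0.886 to 0.917 with PLX4720 and 0.934 to 0.965 in the other groups. Skeletal muscle markers (16 of 18 genes measured, none detected on all arrays and none called with PLX4720) stood apart, with a mean log2 signal of 12.76 on PLX4720 replicate 1, 10.01 on COMBO replicate 1 and 9.25 on bevacizumab replicate 2, and 5.07 to 7.91 on the other 8 arrays. Endothelial markers (8 of 8 measured) averaged 8.64 to 8.74 in vehicle, 7.27 to 7.85 with PLX4720, 7.91 to 8.13 with bevacizumab and 7.03 to 7.33 with COMBO, and 4 of the 8 were called lower with PLX4720. Fibroblast markers (8 of 8) averaged 8.99 to 9.61 in vehicle, 9.23 to 10.89 with PLX4720, 9.29 to 9.95 with bevacizumab and 8.05 to 8.76 with COMBO. Macrophage markers (6 of 8) averaged 8.91 to 9.13, 9.38 to 9.60, 8.85 to 9.06 and 9.75 to 10.04 in the same order, with 1 called higher with PLX4720. Adipocyte markers (2 of 6) averaged 5.52 to 6.83 in vehicle, 8.84, 6.12 and 7.70 on PLX4720 replicates 1, 2 and 3, 5.64 to 8.28 with bevacizumab and 8.02 and 7.35 with COMBO. Cell cycle markers (4 of 6) averaged 6.32 to 6.52, 6.49 to 7.52, 6.38 to 7.13 and 6.45 to 6.95 in the order of the groups, and none of either list was called. Of the melanocyte markers only Pmel was measured, at 6.40 to 6.68 in vehicle and 5.47 to 5.61 with PLX4720, where it was called lower. The part of these in the results below was not tested, except that fits without the 3 arrays of highest muscle signal, or with that signal as a covariate, are given.

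With PLX4720, probes of Eef2, Eif5a, Eif4b, Eif4g2, Eif4a2, Eif4a3, Eif5, Eef1a1 and Eef1a2 fell, and 1 probe each of Eef1d and Eif2b5 rose. In limma fits over all 19392 probes, with Benjamini-Hochberg adjusted p under 0.05, 15 of the 90 probes (16.7%) were called, beside 12.2% of all probes. Lower signal was called for 13 of the 90 (7.35% of all probes) and higher signal for 2 (4.82% of all probes). The split depended on the scaling: with each array scaled to its median it was 46 higher and 6 lower (37.02% and 1.88% of all probes), with housekeeping genes 7 and 10 (5.79% and 9.18%), and without background correction 5 and 12 (4.23% and 6.37%). The median change over all probes was 0.12 on the log2 scale and the median over the 90 probes was 0.24, and 59 of the 90 had a change above 0 (65.6%, against 56.9% of all probes). The detection filter bears on this share: 15 of the 90 were detected on no vehicle array, and of the 75 that were, 44 (58.7%) had a change above 0. The share of all probes under the same restriction was not computed, so the 58.7% has no matched comparison. Under median scaling these medians were 0.60 and 0.86, and under both scalings 53 of the 90 probes lay above the median of all probes. On normalized signal, 19 of the 90 probes were lower on every PLX4720 array than on any vehicle array (15.9% of all probes) and 22 were higher (18.3% of all probes).

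**Figure D1:**
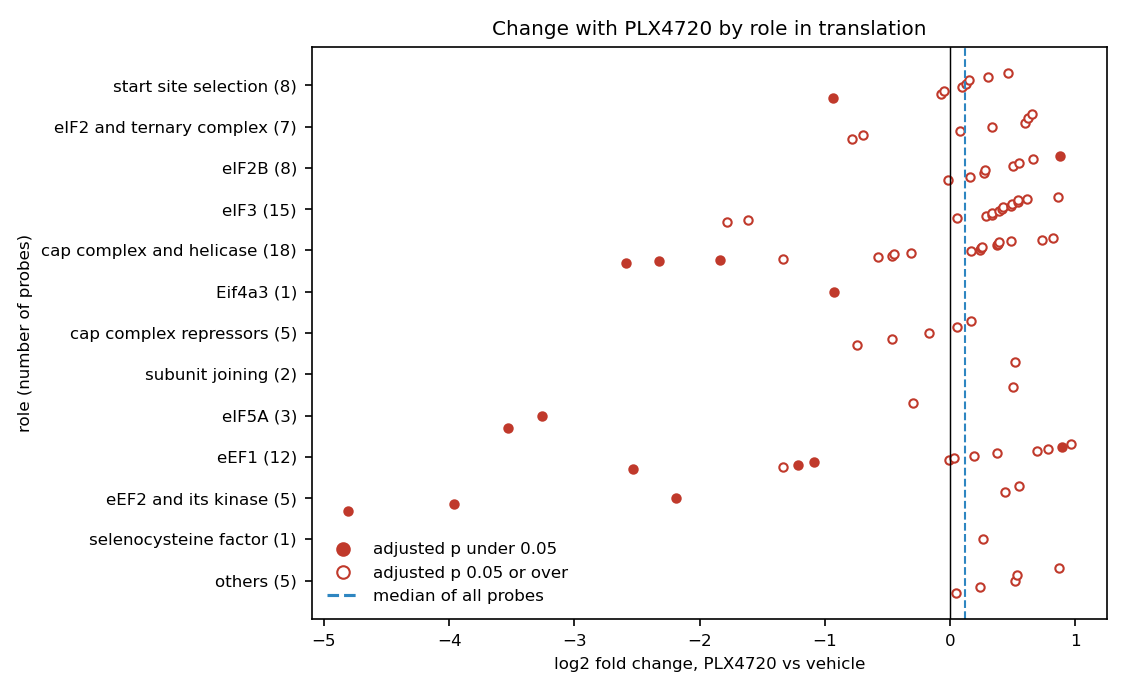
Log2 fold change of PLX4720 against vehicle for each of the 90 probes (x axis), by role in translation (y axis, number of probes in brackets). Filled points passed adjusted p 0.05 and the dashed line is the median of all probes, 0.12. The 13 filled points on the left include 3 Eef2 probes and 2 Eif5a probes, and the 2 filled points on the right are Eif2b5 and Eef1d.

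Eef2 encodes the translocase of elongation and had 3 detected probes, which all fell. The probe ILMN_1239110 read 13.26, 14.11 and 13.19 on the normalized log2 scale in the vehicle tumors and 6.69, 11.39 and 8.05 with PLX4720. It read 13.30, 12.95 and 12.39 with bevacizumab and 12.53 and 12.55 with COMBO. PLX4720 replicate 1 was lowest and replicate 2 highest of the 3, all below every other array. The change was -4.81 (SE 0.86, adjusted p = 0.00728, limma), a 28.05-fold lower signal (95% interval 7.65 to 103). The interval rests on a spread pooled over the 4 groups, although the SD was 2.42 with PLX4720 and 0.51 in vehicle.

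The 2 other Eef2 probes ordered the PLX4720 arrays in the same way. ILMN_2589181 read 10.88, 11.61 and 11.07 in vehicle and 5.43, 9.45 and 6.80 with PLX4720, a change of -3.96 (SE 0.74, adjusted p = 0.00847, limma). ILMN_1252294 read 8.49, 9.36 and 8.52 in vehicle and 5.02, 8.29 and 6.48 with PLX4720, a change of -2.19 (SE 0.66, adjusted p = 0.049, limma). On PLX4720 replicate 1 these 2 probes were not detected. Against the vehicle mean, replicate 1 differed by -6.83, -5.76 and -3.77 in the order of the probes given, replicate 3 by -5.47, -4.39 and -2.31 and replicate 2 by -2.13, -1.74 and -0.50, so all 3 tumors lay below it at all 3 probes. The SD over the PLX4720 tumors was 2.42, 2.05 and 1.64 for the 3 probes, against 0.51, 0.38 and 0.50 over the vehicle tumors.

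The first 2 Eef2 probes were called in all 11 fits that left out 1 array, with changes from -6.15 to -3.80 and from -5.08 to -3.06. The probe ILMN_1252294 was called in 1 of these 11 fits, the one without PLX4720 replicate 2, and its change ran from -3.04 to -1.40. For that probe the change was -1.43 (adjusted p = 0.174) under median scaling and -1.31 (adjusted p = 0.0652) without background correction. Without the 3 arrays of highest muscle signal the changes were -3.80, -3.06 and -1.40, with limma adjusted p of 0.0503, 0.0538 and 0.224, and with muscle signal as a covariate they were -3.79, -3.04 and -1.51, with adjusted p of 0.0221, 0.024 and 0.171. Over the PLX4720 replicates 1, 3 and 2, muscle signal was 12.76, 7.91 and 5.10 beside an ILMN_1239110 signal of 6.69, 8.05 and 11.39. COMBO replicate 1 and bevacizumab replicate 2, with muscle signal of 10.01 and 9.25, read 12.53 and 12.95 at this probe. The relation between these signals was not tested beyond these fits.

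Eef2k, the kinase that inactivates eEF2, had 2 probes that were detected on no vehicle array. They read 5.27 ± 0.11 and 4.93 ± 0.16 (SD, n = 3) in vehicle and 5.70 ± 0.25 and 5.48 ± 0.05 (SD, n = 3) with PLX4720. The differences, 0.44 and 0.55, did not pass the test (adjusted p = 0.184 and 0.085, limma).

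Eif5a, the hypusine-carrying factor, had 3 probes, of which 2 fell. ILMN_1251631 read 11.22, 11.74 and 11.56 in vehicle and 4.96, 10.59 and 8.39 with PLX4720, a change of -3.53 (SE 0.97, adjusted p = 0.0377, limma). ILMN_2678828 read 11.28, 11.65 and 11.35 in vehicle and 5.37, 10.47 and 8.65 with PLX4720, a change of -3.26 (SE 0.89, adjusted p = 0.0365, limma). Replicate 1, where neither probe was detected, was again lowest and replicate 2 nearest to the vehicle tumors, as at Eef2. The third probe, ILMN_2686044, read 9.06, 8.91 and 9.09 in vehicle and 7.09, 9.0 and 10.09 with PLX4720, so the groups overlapped and the difference of -0.29 (SE 0.56) had an adjusted p of 0.735. The calls of the first 2 probes held in 3 and 5 of the 11 fits that left out 1 array, with changes from -4.83 to -2.02 and from -4.42 to -1.86. The smallest changes came without PLX4720 replicate 1, where both calls held (adjusted p = 0.0418 and 0.035), and they did not hold with the muscle covariate (-2.18 and -2.01, adjusted p = 0.109 and 0.103, limma). Each call was lost without vehicle replicates 1, 2 or 3, without PLX4720 replicate 3 and without either COMBO array, and the first also without bevacizumab replicate 2 or 3.

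**Figure D2:**
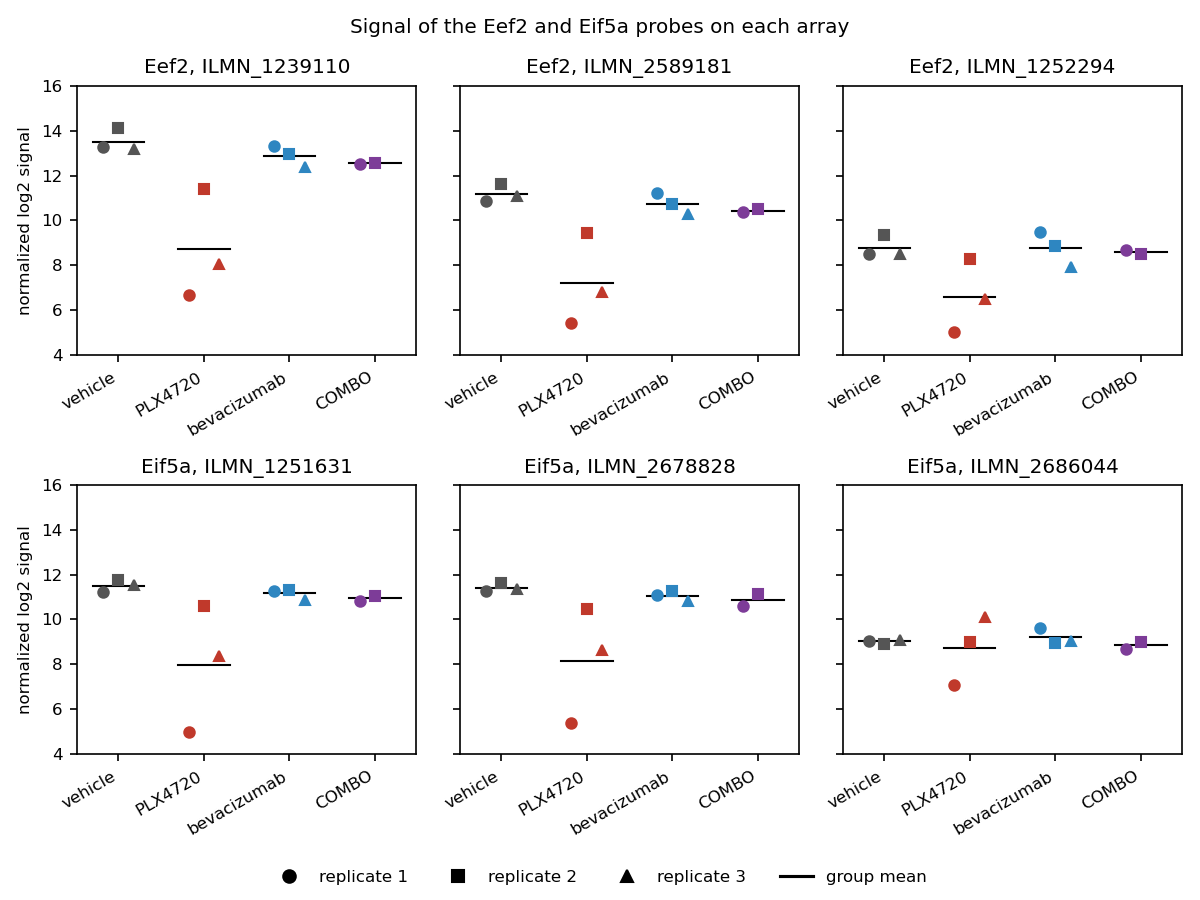
Normalized log2 signal (y axis) of the 3 Eef2 probes (upper row) and the 3 Eif5a probes (lower row) on each of the 11 arrays, by group (x axis), with marker shape for the replicate number and a line for the group mean. At all 3 Eef2 probes and the first 2 Eif5a probes the 3 PLX4720 arrays spread widely below vehicle, with replicate 1 lowest, while the third Eif5a probe does not separate the groups.

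Among factors of the cap complex, Eif4b, Eif4g2 and Eif4a2 each had 1 probe that fell and at least 1 that did not. Eif4b stimulates the helicase of the complex. Its probe ILMN_2753323 read 8.07, 8.01 and 7.90 in vehicle, 4.79, 6.27 and 5.16 with PLX4720, 7.01, 7.44 and 6.78 with bevacizumab and 6.97 and 6.79 with COMBO. All treated tumors lay below all vehicle tumors, the PLX4720 tumors lowest. It was detected on 1 of the 3 PLX4720 arrays and on all others. The change with PLX4720 was -2.59 (SE 0.34, adjusted p = 0.00179, limma). Without background correction it was -1.33 (adjusted p = 0.00191), so its size depends on that step, with replicates 1 and 3 of PLX4720 at background. It passed the threshold in all 11 fits without 1 array and in all 15 other alternatives run for it. The other Eif4b probe, ILMN_1243394, was detected on no vehicle array and on all 3 PLX4720 arrays, at 5.28 ± 0.07 (SD, n = 3) and 6.01 ± 0.45 (SD, n = 3) (adjusted p = 0.0763, limma). It was therefore kept by the detection filter only through the group in which it is high, and its vehicle values lie at the background level of the arrays.

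Eif4g2 encodes a relative of the scaffold eIF4G that does not bind the cap-binding protein eIF4E. Its probe ILMN_1213167 read 10.98, 11.57 and 11.14 in vehicle and 9.77, 9.72 and 7.23 with PLX4720, a change of -2.33 (SE 0.57, adjusted p = 0.0253, limma). Here replicate 3, not replicate 1, was lowest. The other probes changed by -0.58 and 0.48 and did not pass the test. The call was lost without vehicle replicate 2 or 3 and without the 3 arrays of highest muscle signal, with changes from -2.76 to -1.49 over the 11 fits, the smallest without PLX4720 replicate 3. Under median scaling it was -1.41 (adjusted p = 0.122).

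Eif4a2 encodes 1 of the helicases of the cap complex. Its probe ILMN_2702215 read 13.39, 13.52 and 13.60 in vehicle and 11.07, 12.66 and 11.26 with PLX4720, a change of -1.84 (SE 0.39, adjusted p = 0.0148, limma). The groups did not overlap, and replicate 2 was nearest to vehicle. The probe ILMN_2976829 read 14.34 to 14.41 in vehicle and 13.53 to 14.50 with PLX4720, which overlap (change -0.32, SE 0.28), and ILMN_2449506, not detected on any vehicle array, differed by 0.82 (SE 0.33, adjusted p = 0.116, limma). Leaving out vehicle replicate 2 or 3 or PLX4720 replicate 1 ended the call, as did the muscle covariate and leaving out the 3 arrays of highest muscle signal, with changes from -2.34 to -1.54.

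Eif4a1, the closely related helicase, gave 2 further readings that diverged. ILMN_2618481 read 9.58, 9.41 and 9.49 in vehicle and 6.55, 8.98 and 8.95 with PLX4720 (change -1.34, SE 0.51, adjusted p = 0.101, limma). ILMN_2959480 read 11.51 to 11.78 in vehicle and 11.70 to 11.95 with PLX4720 (change 0.17, SE 0.22). The lower reading rested mostly on PLX4720 replicate 1.

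Eif4e, which binds the cap, was detected on 1 array by its 1 kept probe and read 5.0 ± 0.16 in vehicle and 5.25 ± 0.21 with PLX4720 (SD, n = 3 each). Its repressor Eif4ebp1 read 9.83, 9.59 and 9.97 in vehicle, 9.19, 9.27 and 9.55 with PLX4720 and 9.25 and 9.23 with COMBO. The PLX4720 and COMBO values lay below all vehicle values, and the differences, -0.46 (SE 0.22) and -0.55 (SE 0.24), did not pass the test (adjusted p = 0.172 and 0.362, limma). Eif4ebp2, a second repressor, read 7.32, 7.39 and 7.20 in vehicle and 5.15, 7.43 and 7.09 with PLX4720, with replicate 1 alone far below. None of the 5 repressor probes was called. Neither was any of the 2 probes grouped for subunit joining and the large ribosomal subunit, of Eif5b and Eif6. Eif6, a factor of the large subunit, differed by 0.52 (SE 0.23, adjusted p = 0.144, limma).

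Eif4a3, the helicase of the exon junction complex rather than of the cap complex, fell by a smaller amount with less spread. It read 12.38, 12.84 and 12.60 in vehicle, 11.63, 11.54 and 11.87 with PLX4720, 12.05, 12.30 and 12.32 with bevacizumab and 12.41 and 12.37 with COMBO. The change with PLX4720 was -0.93 (SE 0.22, adjusted p = 0.0209, limma), and all 3 PLX4720 tumors lay below all others. Leaving out vehicle replicate 2 or 3 or PLX4720 replicate 1 ended the call, although the change stayed between -1.04 and -0.81. Under median scaling it was -0.16 and not called.

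For start site selection, Eif5, which triggers GTP hydrolysis on eIF2, had 3 probes. ILMN_3072536 read 13.21, 13.89 and 13.72 in vehicle and 12.64, 12.999 and 12.37 with PLX4720, a change of -0.94 (SE 0.27, adjusted p = 0.0423, limma). The other probes changed by 0.46 (SE 0.34) and -0.08 (SE 0.30), with groups that overlapped. The call held in 4 of 11 fits without 1 array, and not when these were left out: vehicle replicate 2 or 3, PLX4720 replicate 1 or 3, bevacizumab replicate 2 or either COMBO array, with changes from -1.14 to -0.79. Under median scaling it was -0.33 (adjusted p = 0.316).

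In eIF2B, 1 of 8 probes was called with PLX4720, beside 12.2% of all probes. A change above 0 was found at 7 of the 8, beside 56.9% of all probes. Of the 8, 3 were probes of Eif2b5 and 2 of Eif2b1, so they are not 8 separate genes. Eif2b5 encodes the catalytic subunit. Its probe ILMN_2715215 read 6.09, 5.92 and 6.28 in vehicle and 6.79, 6.92 and 7.21 with PLX4720, a change of 0.88 (SE 0.26, adjusted p = 0.0456, limma). Its other probes differed by 0.55 (SE 0.21, adjusted p = 0.0996) and 0.50 (SE 0.23, adjusted p = 0.16) in the same direction. The call held in 3 of the 11 fits and in none of those without a vehicle or a PLX4720 array or without bevacizumab replicate 2 or 3, with changes from 0.76 to 0.97, and it did not hold on the authors' cubic spline values. Under every scaling run the change was above 0, at 1.68 (called) with median scaling and 0.40 (adjusted p = 0.0569) without background correction.

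Of the 7 probes for eIF2 and the ternary complex, which include those of Eif2a and Eif2d, none was called. The X-linked gamma subunit Eif2s3x read 7.86, 8.45 and 8.49 in vehicle and 8.70, 8.34 and 8.0 with PLX4720. Its Y-linked copy Eif2s3y, in female hosts, read 6.14, 6.43 and 6.01 in vehicle and was detected there on all 3 arrays, against 5.27, 5.38 and 5.58 with PLX4720, where it was detected on none. The vehicle signal was at least 1.64-fold the lowest detected signal (adjusted p = 0.0646, limma).

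In eIF3, the scaffold that joins the small subunit to the mRNA, none of 15 probes was called. A change above 0 was found at 13 of the 15, of which Eif3h and Eif3j1 were each kept through 1 PLX4720 array alone, and 56.9% of all probes had one. The 2 probes with a change below 0 had the largest differences of the group. Eif3c read 8.0, 8.34 and 8.50 in vehicle and 5.06, 8.11 and 6.33 with PLX4720 at ILMN_2615741 (change -1.78, SE 0.57, adjusted p = 0.0603, limma), while its other probe differed by 0.54 (SE 0.38). Eif3b read 9.23, 9.33 and 9.89 in vehicle and 5.31, 8.67 and 9.63 with PLX4720 (change -1.61, SE 0.81, adjusted p = 0.198, limma). Eif3f had 2 probes that read alike, with differences of 0.54 (SE 0.21) and 0.61 (SE 0.20), adjusted p = 0.1 and 0.0687.

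In the eEF1 group, 3 of 12 probes fell and 1 rose, beside 7.35% and 4.82% of all probes. Eef1a2, the form of eEF1A used in muscle and neurons of mammals, read 10.87, 11.93 and 11.54 in vehicle and 10.23, 6.80 and 9.70 with PLX4720 at ILMN_2666990, a change of -2.53 (SE 0.70, adjusted p = 0.0369, limma). The probe ILMN_2971559 read 10.03, 10.72 and 10.49 in vehicle and 10.96, 6.70 and 9.56 with PLX4720, so the groups overlapped (change -1.34, SE 0.80, adjusted p = 0.273, limma). At both probes replicate 2 was lowest and replicate 1 highest, the reverse of Eef2, and the muscle marker means of these arrays were 5.10 for replicate 2, 7.91 for replicate 3 and 12.76 for replicate 1. Vehicle replicates 1 and 3, with muscle marker means of 5.10 and 5.08, read 10.87 and 11.54 at ILMN_2666990. With muscle signal as a covariate the change at ILMN_2666990 was -3.50 (adjusted p = 0.0082, limma). This call was lost on leaving out any 1 vehicle array or bevacizumab replicate 2, and without the 3 arrays of highest muscle signal (-3.19, adjusted p = 0.0553), and the change ran from -3.19 to -1.48 over the 11 fits, the smallest without PLX4720 replicate 2. Under median scaling it was -1.65 (adjusted p = 0.0696). The third probe, ILMN_2645171, read 5.75, 5.99 and 6.61 in vehicle, detected once, and 4.93, 4.94 and 4.83 with PLX4720, detected nowhere. The fit called it lower (adjusted p = 0.0307, limma), and no fold is given because 2 of the 3 vehicle arrays did not detect it. The call was lost without vehicle replicate 2 or 3 or any 1 PLX4720 array.

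With COMBO, Eef1a2 read 9.86 and 8.74 at the first probe and 9.06 and 7.63 at the second, below all vehicle tumors, with differences of -2.14 (SE 0.78, adjusted p = 0.274) and -2.07 (SE 0.89, adjusted p = 0.352, limma). With bevacizumab it read 11.50, 11.48 and 11.16 at the first probe.

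Eef1a1, the general form of eEF1A, had 2 probes whose groups overlapped, at 14.07 to 14.28 and 13.88 to 14.05 in vehicle and 13.89 to 14.33 and 13.98 to 14.76 with PLX4720 (differences of -0.01, SE 0.23, and 0.37, SE 0.27). The probe ILMN_1244894 read 8.0, 7.36 and 7.89 in vehicle, 6.63, 6.56 and 6.80 with PLX4720, 7.66, 7.02 and 7.92 with bevacizumab and 6.15 and 6.10 with COMBO. Its change was -1.09 with PLX4720 (SE 0.27, adjusted p = 0.0271, limma) and -1.63 with COMBO (SE 0.30, adjusted p = 0.0661, limma). The PLX4720 call did not hold when vehicle replicate 1 or 3 or PLX4720 replicate 1 or 2 was left out, with changes from -1.28 to -0.96, and under median scaling the change was -0.08.

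Of the subunits that reload eEF1A, Eef1d read 10.28, 9.89 and 9.90 in vehicle, 11.22, 10.61 and 10.91 with PLX4720, 10.84, 10.36 and 10.42 with bevacizumab and 10.05 and 10.20 with COMBO, and its change with PLX4720 was 0.89 (SE 0.24, adjusted p = 0.0354, limma). This call held in 5 of the 11 fits, being lost without vehicle replicate 2 or 3, PLX4720 replicate 1 or 3 or either COMBO array (0.74 to 1.04), and it did not hold on the authors' cubic spline values. Under median scaling the change was 1.83 (called). The 3 probes of Eef1b2 differed by 0.78, 0.69 and 0.19 (adjusted p = 0.0771, 0.0913 and 0.641, limma). Eef1g read 15.70 to 15.81 in vehicle and 15.74 to 15.83 with PLX4720 (difference 0.03, adjusted p = 0.926). It had the highest non-normalized signal of the kept translation factor probes on each array, 53690.2 to 67557.5 in vehicle and 59251.5 to 63175.9 with PLX4720. After quantile normalization vehicle replicate 2 and PLX4720 replicate 2 had the same value, 15.81, and both COMBO arrays read 15.72. Whether so bright a probe could show a change was not tested.

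**Figure D3:**
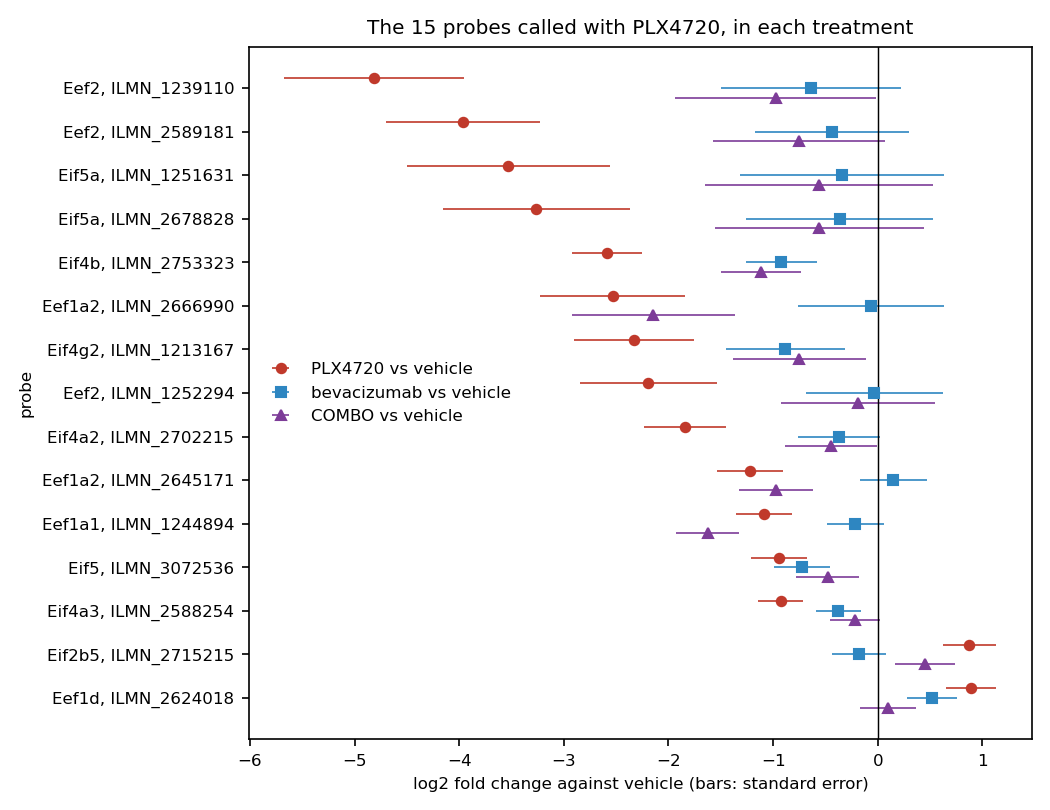
Log2 fold change against vehicle (x axis, bars are the standard error of the fit) of the 15 probes called with PLX4720 (y axis), for PLX4720, bevacizumab and COMBO, which share the vehicle arrays. The Eef2 probes lie at -4.81, -3.96 and -2.19 with PLX4720 and between -0.98 and -0.03 with the other treatments, and Eef1a2 at ILMN_2666990 lies at -2.53 with PLX4720 and -2.14 with COMBO.

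With bevacizumab alone 0 of 90 probes were called with limma (0.00% of all probes), and 4 had an unadjusted p under 0.05 (6.83% of all probes). The largest difference was that of Eif4b at ILMN_2753323, -0.92 (SE 0.34, adjusted p = 0.675). The median over the 90 probes was 0.02, and 6 probes were higher and 6 lower on every bevacizumab array than on any vehicle array (6.54% and 7.11% of all probes).

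COMBO also gave 0 calls among the 90 probes with limma (0.196% of all probes), with 8 at an unadjusted p under 0.05 (2525 of all 19392 probes). At the threshold of the study's methods, set at a log2 change of 1 or more and p under 0.01 before adjustment, 1 probe passed (3.48% of all probes). The probe nearest to the threshold was Eef1a1 at ILMN_1244894, the value given above. On every COMBO array 15 probes were higher and 21 lower than on any vehicle array (20.0% and 18.2% of all probes). Eef2 differed from vehicle by -0.98 (SE 0.96), -0.75 (SE 0.82) and -0.19 (SE 0.73) at its 3 probes, Eif4b by -1.12 (SE 0.38, adjusted p = 0.245) and Eif5a by -0.56 (SE 1.09) and -0.56 (SE 1.00) at its first 2 probes.

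Set directly against PLX4720 alone, COMBO gave 0 calls with limma (0.00516% of all probes). An unadjusted p under 0.05 was found at 17 probes (14.2% of all probes in either direction). Of these 12 were higher and 5 lower, beside 1402 higher and 1356 lower of all 19392 probes. At the methods' threshold 4 passed, all higher, beside 421 higher and 290 lower of all probes (3.67% in either direction). Eef2 was 3.83 higher with COMBO at ILMN_1239110 (SE 0.96, 95% interval 1.74 to 5.93), 3.21 higher at ILMN_2589181 and 2.004 higher at ILMN_1252294, with adjusted p of 0.142, 0.15 and 0.244 (limma). That interval, too, rests on the spread pooled over the 4 groups. Over the 11 fits that left out 1 array, 0 to 8 of the 90 probes were called. The 8, all higher with COMBO, came without PLX4720 replicate 2, beside 403 of all 19392 probes. That tumor had the Eef2 signal nearest to vehicle, so leaving it out widens the difference at Eef2 by construction. Under median scaling 19 were called, all lower, beside 2217 of all probes called lower, where the median of all probes was -0.49. The departure of COMBO from the sum of the 2 single treatments was called for 0 of 90 probes (0.00516% of all probes), with 15 at an unadjusted p under 0.05 (13.8% of all probes) and 5 at the methods' threshold (4.19% of all probes). It was 2.39 for Eif4b at ILMN_2753323 (SE 0.51, adjusted p = 0.115) and 4.47 for Eef2 at ILMN_1239110 (SE 1.29, adjusted p = 0.193). Over the 4 groups together, the F test at an adjusted p under 0.1 called 9 of the 90 probes (9.73% of all probes), all of them among the 15 called with PLX4720.

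Agreement between probes of 1 gene was read at the 25 genes with more than 1 detected probe (12 with 2 probes and 13 with 3). With PLX4720, 8 of these genes had a probe called lower, and in 1 of the 8, Eef2, every probe was called lower (12.5%, against 6.90% for the 594 such genes among all 3749 genes with more than 1 detected probe). In 5 of the 8 (62.5%) at least 1 other probe had a change above 0, as in 376 of the 594 (63.3%). At Eif4b and Eif4a2 that probe was detected on no vehicle array, so it was kept only through groups in which it read higher. The changes of the probes of a gene spanned more than 2 on the log2 scale in 6 of the 25 genes (24%), against 8.06% of all genes, and the median span was 0.59 against 0.63. Among the 6, Eif4b and Eif4a2 pass only through those probes. The genes of the whole array were not screened for such probes.

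The widest spans were 3.32 at Eif4b, 3.23 at Eif5a, 2.81 at Eif4g2, 2.66 at Eif4a2, 2.62 at Eef2 and 2.32 at Eif3c. Those of Eif4b and Eif4a2 each rest on a probe not detected in vehicle. The other Eif4a2 probes changed by -1.84 and -0.32. With bevacizumab no gene of the 25 spanned more than 1, beside 6.11% of all 3749 genes. With COMBO 5 did (20%, against 13.1% of all genes), Eef1a1 widest at 2.01. Across the 11 arrays, the log2 signals of the Eef2 probes correlated at 0.96 to 1.00 with each other, those of Eif5a at 0.59 to 1.00, and the 2 probes of Eif4b at -0.84, with ILMN_1243394 detected on the PLX4720 arrays alone. These correlations are descriptions over 11 arrays that share treatment groups. Which of the mouse and human transcripts each probe can bind was not analysed here, as no probe sequences were used, and the share of human RNA in these signals was not tested.

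**Figure D4:**
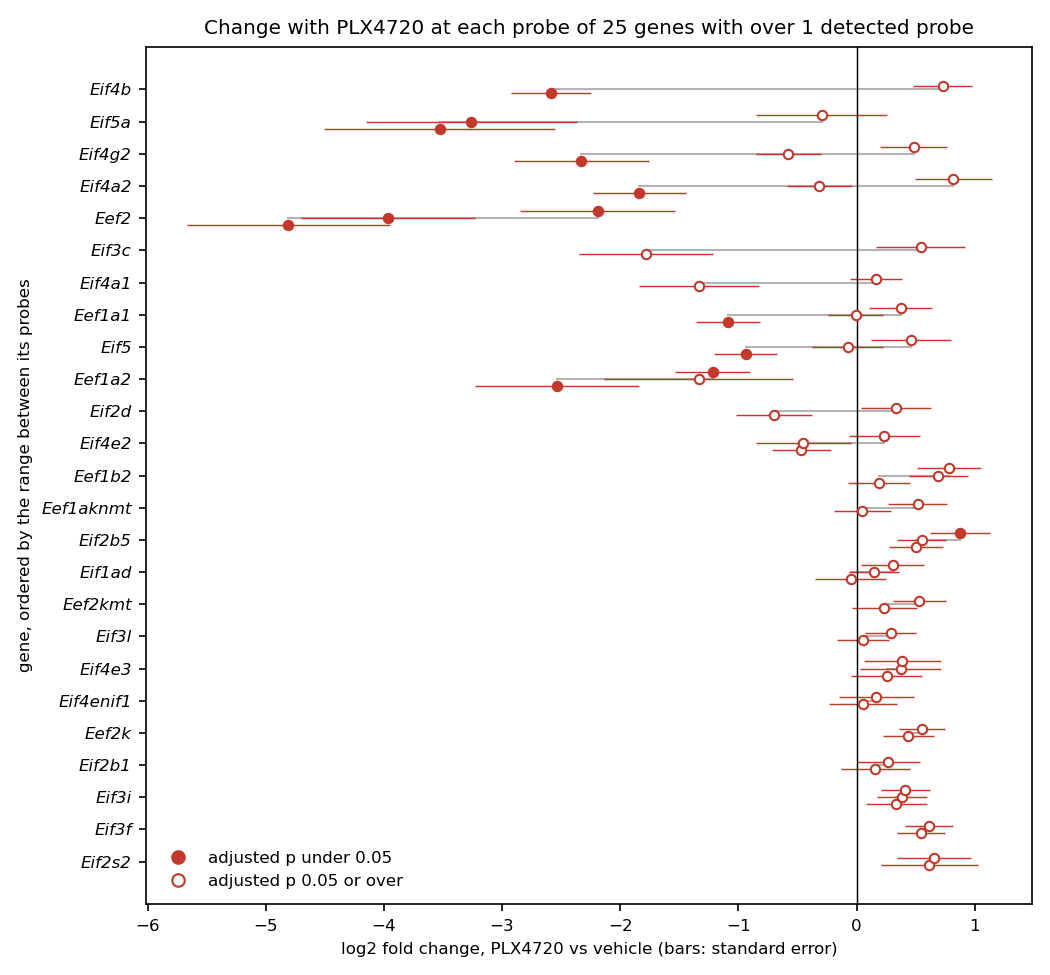
Log2 fold change with PLX4720 (x axis, bars are the standard error of the fit) at each probe of the 25 genes with more than 1 detected probe (y axis, ordered by span, grey line). Filled points passed adjusted p 0.05, and Eef2 alone has all its probes filled, while Eif4b, Eif4g2, Eif4a2, Eef1a1 and Eif5 have a filled point on the left and an open one to the right of 0, which for Eif4b and Eif4a2 is a probe not detected in vehicle.

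Taken tumor by tumor, the low readings with PLX4720 were unequal. On PLX4720 replicate 1, 16 of the 90 probes lay at least 1 below their vehicle mean (17.8%, against 11.6% of all probes) and 9 lay at least 1 above (10%, against 13.04%). On replicate 2 these were 10 and 0 (8.84% and 7.56% of all probes), and on replicate 3 12 and 4 (7.38% and 8.67%). Bevacizumab arrays had 0 to 4 probes at least 1 below (1.91% to 4.29% of all probes) and 0 to 3 above (2.69% to 4.16%). COMBO arrays had 7 and 5 below (4.81% and 3.81%) and 2 and 0 above (5.27% and 4.25%). Of the 13 probes called lower, 7 were lowest on replicate 1, 3 on replicate 2 and 3 on replicate 3. Without PLX4720 replicate 1, 7 of the 90 probes were called, all lower, beside 1032 of all 19392 probes called in either direction.

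**Figure D5:**
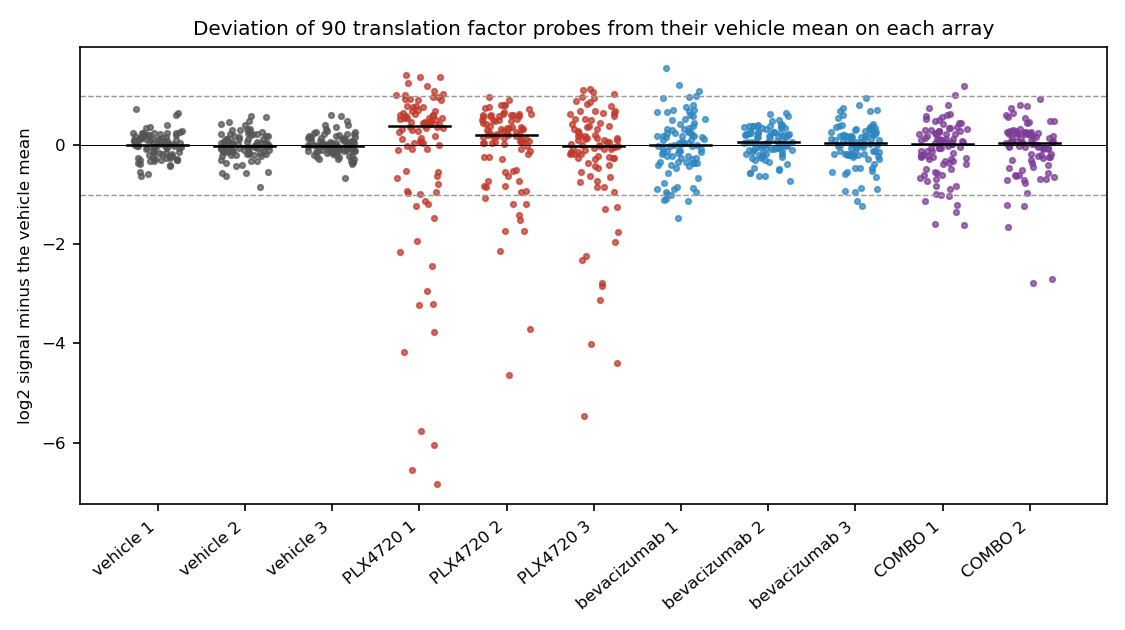
Log2 signal minus the vehicle mean (y axis) of each of the 90 probes on each array (x axis), with a line at the median and dashed lines at -1 and 1. The vehicle arrays are close to 0 partly because they make up the mean, and PLX4720 replicate 1 reaches below -6 at 1 Eef2 probe and 2 Eif5a probes.

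With 1 probe per gene, the brightest, 8 of 52 genes were called with PLX4720, 7 lower (7.51% of all 10933 genes) and 1 higher (5.51% of all genes). For comparison, of all probes 4.82% were called higher and 7.35% lower with PLX4720. Of 67 detected probes of 51 cytosolic ribosomal protein genes, 13 were called higher and 0 lower, with a median change of 0.49. Of 40 probes of 18 hnRNP genes, which bind nuclear RNA, 0 were called higher and 14 lower, with a median of -0.50. These counts were not tested against those of the translation factors.

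Among 36 further genes of the pathway, 4 were called higher and 2 lower with PLX4720 at their brightest probe, beside 5.51% and 7.51% of all genes. With bevacizumab or COMBO 0 were called, with an unadjusted p under 0.05 at 4 and 2 genes (766 and 1526 of all 10933 genes). Of 7 enzymes and factors for initiator tRNA and factor modification, Dohh, which completes hypusine on eIF5A, was lower by -1.05 (SE 0.22, adjusted p = 0.0132, limma) and Dph3, needed for the diphthamide of eEF2, was higher by 0.87 (SE 0.25, adjusted p = 0.0401), with 0.80 and 0.31 at its other probes (adjusted p = 0.0682 and 0.452). Of 9 genes of the integrated stress response, Trib3 was lower by -2.36 (SE 0.64, adjusted p = 0.0342), with -0.58 at its other probe (adjusted p = 0.258), and Atf4 differed by 0.17 (SE 0.33) and Ddit3 by -0.21 (SE 0.24). Of 10 genes of mTOR and MNK input, Tsc2, which restrains mTOR, and Mknk2, a kinase of eIF4E, were higher by 0.90 (SE 0.27, adjusted p = 0.049) and 0.95 (SE 0.29, adjusted p = 0.0488). The other probes of Tsc2 differed by 0.62 and -0.47 (adjusted p = 0.202 and 0.232), so its probes did not go one way. Abce1, which recycles ribosomes, was higher by 1.01 (SE 0.29, adjusted p = 0.0403) at a probe detected on no vehicle array. Of 5 poly(A)-binding genes and 2 eIF2 kinases none was called at its brightest probe. Pabpc1, the main cytoplasmic poly(A)-binding protein, differed by -0.13 (SE 0.32) at that probe, but its other probes, ILMN_2705407 and ILMN_1259769, fell, with changes of -4.35 (SE 0.81, adjusted p = 0.00842) and -2.89 (SE 0.32, adjusted p = 0.00101, limma over all probes). The first of these read 10.94, 11.93 and 11.24 in vehicle and 5.25, 9.53 and 6.27 with PLX4720, and the second read 8.74, 9.47 and 9.46 in vehicle and 5.99, 6.85 and 6.17 with PLX4720. At both, the groups did not overlap and replicate 1 was lowest. Over all 62 detected probes of the 36 genes, 5 were called higher and 4 lower, beside 4.82% and 7.35% of all probes.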

How the data were processed

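Whole-tumor RNA was profiled on 11 arrays. The authors exported probe intensity values and detection p-values, and the deposited non-normalized table of these was used. The submitters' processing notes name GenomeStudio 2011.01, and the authors' own cubic spline normalized intensity values served as an alternative. Probe names came from the platform annotation (34885 of 45281 probes with 1 symbol). Background correction and quantile normalization were done in R 4.3.3 with the neqc function of limma 3.58.1 (offset 16, with the level of negative controls derived from detection p). Probes with detection p under 0.05 on at least 1 array were fitted with 1 mean per group over all 11 arrays and eBayes (7 residual and 4.95 prior degrees of freedom), with Benjamini-Hochberg adjustment over 19392 probes and calls at 0.05. The number of arrays limits the precision. "At least" folds set the bright group's mean against the higher of the lowest detected signal and the probe's own, per array. Data were simulated for this layout of groups, with the spread of a probe equal in every group, unlike the wider PLX4720 spread at Eef2. Of changes of 2 on the log2 scale, 86% were recovered for PLX4720 vs vehicle, 91% for bevacizumab and 80% for COMBO. Of changes of 1, 16%, 13% and 7% were recovered in the same order, in fits over 19392 probes. Whether these shares carry over to the tumor data was not tested.

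Described in full were all Eef2 probes, all called members and the other probes of their genes, and a list of factors chosen by role, of which Eif4g1 and Eif2s1 were not analysed here. Other members are given by counts or for their place in their group, chosen after their values were seen. The members and lists were chosen with earlier results of these data known. Other normalizations, filters, array weights, a muscle covariate and leaving out arrays were tried.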

Additional observations from a re-analysis of the deposited data

How the results depend on the processing

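With PLX4720, 15 member probes were called, and 8 genes with 1 probe each. The counts were 52 and 32 with median scaling, and 27 and 16 at an adjusted p under 0.1. They were 5 and 2 when only the groups compared were fitted, and 6 and 4 with the muscle covariate. Without the 3 arrays of highest muscle signal they were 1 and 4, the 1 probe being that of Eif4b. With the mean of a gene's probes 5 genes were called, and with 1 probe per gene 8 of 52. Leaving out 1 array gave 3 to 14 probes and 2 to 9 genes. The fewest probes were called without vehicle replicate 3 (3), vehicle replicate 2 (4) and PLX4720 replicate 1 (7). The F test, with 9 calls, gave 14 without background correction, 52 with median scaling, 4 with 1 probe per gene, 4 with the mean of probes, 0 without the 3 arrays of highest muscle signal, and 4 to 16 with 1 array left out.

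COMBO against vehicle gave 1 call with array weights, 1 at the methods' threshold (a change of at least 1 with unadjusted p under 0.01) and 1 at an adjusted p under 0.1, and 0 to 0 with 1 array left out. COMBO against PLX4720 gave 19 with median scaling, 4 at the methods' threshold and 0 to 8 with 1 array left out, and the non-additive effect gave 5 at the methods' threshold and 0 to 5. Bevacizumab gave 0 under every alternative run. The median change with PLX4720, 0.24, was 0.13 without background correction, 0.86 with median scaling, 0.10 with housekeeping scaling, 0.12 without the detection filter, and 0.19 to 0.33 with 1 array left out. Other medians were -0.12 for bevacizumab with housekeeping scaling (0.01 to 0.04 with 1 array left out), 0.18 for COMBO with median scaling (0.01 to 0.06), and -0.70 for COMBO against PLX4720 with median scaling (-0.20 to -0.08). The cause of these shifts was not tested.

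Between same-numbered arrays of different groups, the deviations correlated at -0.22 to 0.24 (15 pairs, 2 over 0.1). The groups hold few arrays and no differently numbered pairs are given for comparison. These values therefore cannot decide whether the numbers pair the arrays. With the replicate block, 17 member probes were called with PLX4720 and 10 genes, and it moved no other count by over 1.5 times. For the 15 called probes no alternative turned a direction, and of 389 refits 251 kept the call and 138 did not. Probes near background, such as Eif4e and Eef2k, give only weak bounds on change.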
